A study of Mus musculus with 2 samples.

Results

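The genes described here are 9 markers of the ovarian surface epithelium and of mesothelium: the keratins Krt7, Krt8, Krt18 and Krt19, the mesothelial genes Upk3b, Upk1b and Msln, and the epithelial adhesion genes Cdh1 and Epcam. They were taken as every probe set of the array whose only gene symbol in the platform annotation is 1 of these 9, which gave 16 of the 45101 probe sets. RNA came from ovaries of mice at 2 days of age. The control group is Amhr2(+/+)-SmoM2, which carries the conditional SmoM2 allele, an activated form of the hedgehog signal transducer Smoothened, with no Cre. The mutant group is Amhr2(cre/+)-SmoM2, in which Cre made from 1 copy of Amhr2 switches that allele on in gonadal somatic cells. SmoM2 is shared by the groups, while Cre and the changed Amhr2 copy differ between them along with SmoM2 activation and cannot be told apart from it. Each group was 1 array, hybridised with a pool of RNA from 8 mice.

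The ovarian surface epithelium is a single layer of cells that covers the ovary and is continuous with the mesothelium of the body cavity. Its cells carry keratin filaments, built as pairs of a type II keratin such as keratin 8 or 7 with a type I keratin such as keratin 18 or 19. These genes are not unique to the surface layer. Simple-epithelial keratins are also made by pregranulosa cells of the perinatal ovary, and germ cells make E-cadherin (Cdh1) and EpCAM, so a whole-ovary pool mixes these sources.

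Values are probe-set signals on a linear intensity scale. Probe sets were treated as measured if at least 1 array reached a signal of 80.7, the median of all values. Log2 ratios are mutant over control, with 22.2 added to each signal first. A gene with several probe sets is represented by its brightest measured one, and a gene or probe set is called higher or lower when its log2 ratio reached 1.5-fold (0.585 on the log2 scale). With 1 array per group there was no replicate error and no test, so each difference compares these pools only. The only spread at hand was the disagreement among a gene's own probe sets, an SD of 0.38 in the log2 ratio over 5118 genes. As a check of the genotype, the hedgehog target Hhip had a signal of 1.1 on the control array and 3216 on the mutant array (39.8-fold or more). The targets Ptch1 and Gli1 had log2 ratios of 1.51 and 1.19, and Smo itself 0.28. In a bulk sample, fewer cells of a type and less RNA per cell cannot be told apart.

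All 16 probe sets were measured, and each lay above 80.7 on both arrays. At the level of genes, 3 of the 9 were called lower in the mutant pool (Krt18, Krt8 and Epcam) and 0 were called higher. Over all 12308 measured genes, 7.90% were called lower and 9.32% higher. Of the 9 ratios, 8 were below 0, beside 6456 of 12308 over all measured genes. The median log2 ratio of the 9 genes was -0.25, against -0.02 for all measured genes. That median was -0.13 with the median over each gene's probe sets, where Upk1b (0.03) and Epcam (0.05) turned above 0, -0.14 without probe sets shared between transcripts, and -0.48 over the 6 genes left with the minimum at the 75th percentile of all values. At the level of probe sets the count was less one-sided: 3 of 16 were called lower and 2 were called higher, against 9.87% and 8.81% of the 20576 measured probe sets, with a median of -0.17 beside -0.04. None of the 16 reached 2-fold, which 2.04% of measured probe sets did downward and 2.89% upward (1.40% and 3.21% of genes).

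**Figure D1:**
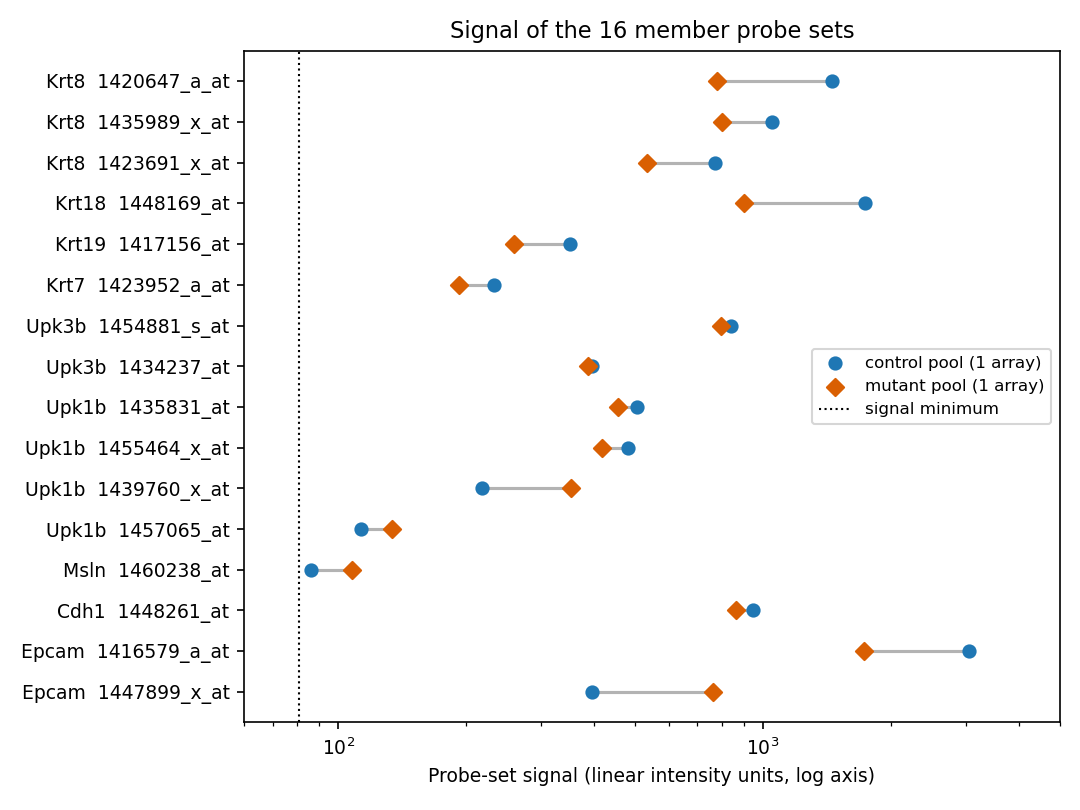
Signal of each of the 16 probe sets in the control pool (blue circles) and the mutant pool (orange diamonds), 1 array each, on a log axis in linear intensity units, with the signal minimum of 80.7 as a dotted line. All 6 keratin probe sets, 3 of them of Krt8, were lower in the mutant pool. The Upk3b and Cdh1 symbols nearly coincide, and the 2 Epcam probe sets run in opposite directions.

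The keratin probe sets shared a direction but not a size. All 6 of the 4 genes, 3 of them of Krt8, were lower in the mutant pool (log2 ratios from -0.94 to -0.25). Of all 20576 measured probe sets, 11175 had a ratio below 0. Krt18 (Entrez gene 16668), the type I partner of keratin 8, had a signal of 1744 on the control array and 901 on the mutant array, a log2 ratio of -0.94 on its only probe set. Of all measured genes, 1.89% had a lower ratio. Krt8 (16691), the type II partner, read 1452 on the control array and 778 on the mutant array on its brightest probe set, a log2 ratio of -0.88. The other Krt8 probe sets gave smaller differences in the same direction: 1050.2 against 800.5 (log2 ratio -0.38) and 770.0 against 534 (-0.51). Both of these carry the suffix _x_at, which marks probe sets with probes that can bind other sequences. Keratin 8 and 18 have processed pseudogenes, so their signals may include related transcripts.

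Krt8 and Krt18 are neighbouring genes on chromosome 15 in the RefSeq order, and on the brightest probe sets their ratios differed by less than the probe-set SD. A ratio of this size was not rare: 97 other genes lay within 0.05 of that of Krt18 and 115 within 0.05 of that of Krt8. Krt19 (16669), a type I keratin of simple epithelia, was 352 on the control array and 259 on the mutant array, a log2 ratio of -0.41. Krt7 (110310), a type II keratin of mesothelium and ducts, was 233 and 192, a ratio of -0.25. Krt19 and Krt7 were not called, and their probe sets lie at a moderate signal, where the probe-set SD was likewise 0.38.

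The promoter windows of the keratin genes that were lower, and of Epcam, are shown because these members were the ones past 1.5-fold. Each is the 250 bases before the gene's annotated start in the RefSeq table of GRCm38.p6, read 5′ to 3′ on the gene's strand, and capitals mark the E-box letters CACCTG or their reverse complement CAGGTG, the kind of site that Snail and Zeb repressors bind. The Krt8 window is chr15:102004343-102004592 on the minus strand, the Krt18 window chr15:102027966-102028215 on the plus strand, and the Epcam window chr17:87635729-87635978 on the plus strand.
Krt8: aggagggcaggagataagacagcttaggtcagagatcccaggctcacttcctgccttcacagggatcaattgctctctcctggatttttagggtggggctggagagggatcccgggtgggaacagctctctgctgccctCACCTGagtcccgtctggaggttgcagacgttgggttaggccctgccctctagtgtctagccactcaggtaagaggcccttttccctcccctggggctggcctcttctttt
Krt18: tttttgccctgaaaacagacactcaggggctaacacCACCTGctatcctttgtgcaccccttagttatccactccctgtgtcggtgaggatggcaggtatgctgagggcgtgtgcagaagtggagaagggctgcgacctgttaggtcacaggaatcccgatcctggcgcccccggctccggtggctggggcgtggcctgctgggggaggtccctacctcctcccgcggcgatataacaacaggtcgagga
Epcam: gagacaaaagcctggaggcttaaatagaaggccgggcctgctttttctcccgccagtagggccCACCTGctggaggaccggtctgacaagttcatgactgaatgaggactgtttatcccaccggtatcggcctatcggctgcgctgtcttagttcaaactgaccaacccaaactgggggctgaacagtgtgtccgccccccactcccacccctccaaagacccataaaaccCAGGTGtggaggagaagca

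Of the 9 genes, 5 had a promoter window in the table (Krt7, Krt8, Krt18, Upk3b and Epcam). The E-box letters were found on either strand in 4 of these 5, all but Upk3b, against 17.2% of all 32851 windows of the same length. Their first letter lay 111 bases before the start in Krt8, 214 in Krt18, 44 in Krt7, and 187 and 19 in Epcam. Of these genes, Krt7 was not called (log2 ratio -0.25), and the second Epcam probe set had a ratio of 0.91. A relation between the letters and the ratios was not tested. The core of the site bound by hedgehog-activated GLI factors, searched as ACCACCC on both strands, was in 0 of the 5 windows and in 3.92% of all windows. The GC box letters GGGCGG were in the windows of Krt7 and Epcam and in 32.7% of all. The AP-1 letters TGANTCA and the TATA box letters TATAAA were in 0 of the 5, against 6.75% and 12.4% of all. All motifs were searched on both strands, matches of different motifs were allowed to overlap, and a match is only a run of letters in these windows.

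The mesothelial genes differed little between the pools. Upk3b (100647), a uroplakin of mesothelium and urothelium, read 842 on the control array and 797 on the mutant array on 1 probe set and 396 and 386.5 on the other, log2 ratios of -0.08 and -0.03. Msln (56047), the gene of the surface glycoprotein mesothelin, was 86.3 on the control array and 108 on the mutant array. Its log2 ratio of 0.26 was the only one above 0 among the 9 genes, and it comes from a dim probe set, in the range of signal where the probe-set SD was 0.48.

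Upk1b (22268), a tetraspanin uroplakin, had 4 probe sets that did not share a direction. Its brightest pair read 506.5 and 482 in the control against 457 and 418 in the mutant pool (log2 ratios of -0.14 and -0.20). Another read 218.5 on the control array and 354 on the mutant array (0.64), and the dimmest 113 and 134 (0.20). The probe set with 0.64, an _x_at design, was called higher while the gene, taken by its brightest probe set, was not.

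The adhesion genes gave the widest disagreement among probe sets. Cdh1 (12550), which encodes E-cadherin of the adherens junction, was 947 on the control array and 865 on the mutant array, a log2 ratio of -0.13 on its only probe set. Epcam (17075), a homophilic adhesion protein of epithelial and germ cells, was 3060.0 on the control array and 1731 on the mutant array on its brightest probe set, a log2 ratio of -0.81. The second Epcam probe set, an _x_at design, ran the other way, with 395 on the control array and 764 on the mutant array (0.91). Such a split was uncommon: among the 5118 genes with several measured probe sets, 1.06% had both a called-higher and a called-lower probe set. The direction of Epcam therefore depends on the probe set read.

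**Figure D2:**
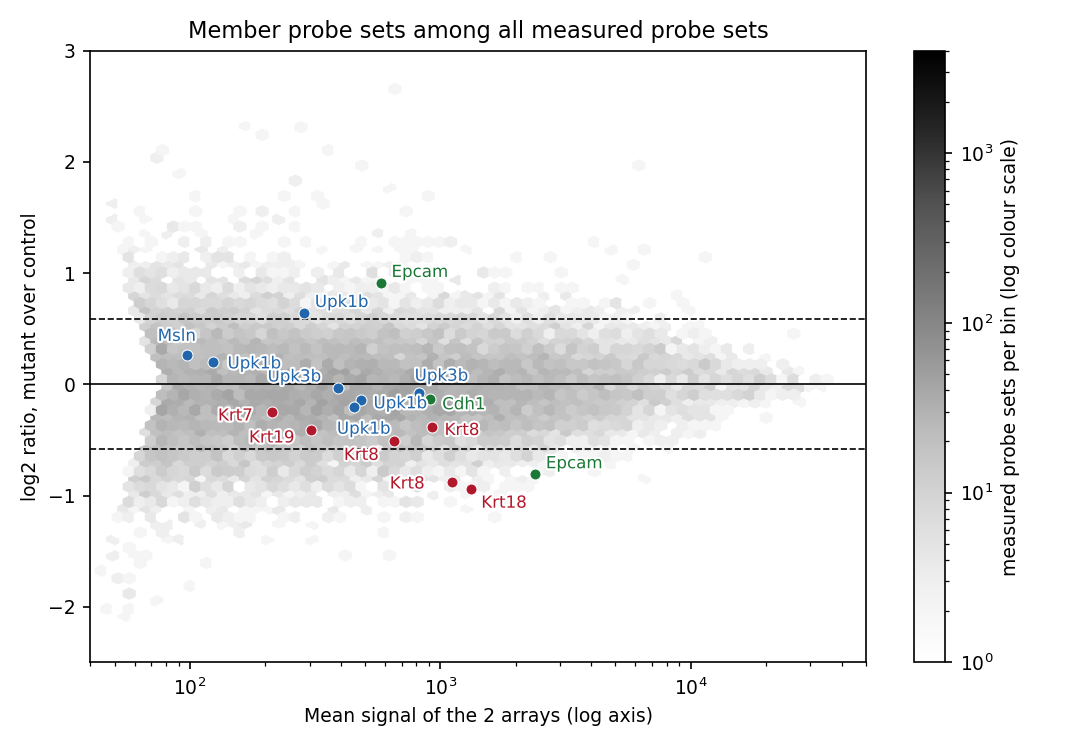
Log2 ratio of mutant to control against the mean signal of the 2 arrays (log axis) for all measured probe sets (grey, darker where more fall in a bin) and for the 16 probe sets of the 9 genes, with keratins in red, mesothelial genes in blue and adhesion genes in green. Dashed lines mark 1.5-fold, and 26 measured probe sets with ratios above 3 lie outside the axis; Krt18, Krt8 on its brightest probe set and the brighter Epcam probe set lie below the lower dashed line.

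Markers of the cell types that share these genes also differed between the pools. Of 14 pregranulosa genes, all measured, 9 were called lower and 0 higher, with a median log2 ratio of -0.73 and a summed signal of 43533 on the control array and 31339 on the mutant array. Foxl2, the transcription factor that defines the lineage, had a ratio of -0.95. Lgr5 had -1.23, and Runx1 had -1.10 with 4 probe sets from -1.10 to -0.25. The lowest ratio of the list was that of Amhr2 (-1.30), the gene with the changed copy in the mutant, where an effect of that copy cannot be told apart. That Amhr2 value is from an _x_at probe set, and its 3 probe sets ran from -1.30 to -0.26. Gata4, Hsd17b1 and Kitl, named after their values were seen, had ratios of 0.41, 0.33 and 0.18. Of 20 oocyte genes, 19 were measured, 7 were called lower and 0 higher, with a median of -0.53 and a summed signal of 90296 against 63466. Figla, an oocyte transcription factor, had a ratio of -0.96, in a list that ran from -1.21 for Sohlh1 to -0.13 for Taf4b. None of the measured genes of these lists was at or near 0 on either array, the lowest signals being 147 for Irx5 among pregranulosa and 211 for Pou5f1 among oocyte genes. The part of these cell types in the ratios of Krt8, Krt18 and Epcam was not tested.

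Other markers of the surface layer and mesothelium were spread around a log2 ratio of 0. Of 14 listed, 12 were measured, 0 were called lower and 1 was called higher, with a median log2 ratio of 0.02 and a summed signal of 47601 on the control array and 47097 on the mutant array. That sum is weighted to its brightest genes, which ran in opposite directions: Igfbp5 (17304 on the control array, 13192 on the mutant array) and Aldh1a1 (9439 and 12372). Wt1, a transcription factor that pregranulosa cells also express, had the lowest ratio of the list (-0.46). Whether the other genes of the list come from the surface layer alone was not tested. Some of those near 0, named after their values were seen, had modest signals in the control and mutant pools: Lrrn4 (132 and 137), Nkain4 (250 and 246) and Muc16 (265 and 264). Gpm6a, a membrane glycoprotein of mesothelium, and Lhx9, a gonadal LIM homeobox factor, had 0.47 each, the lowest of 3 probe sets for Lhx9, which reached 0.89. Cd200, a surface glycoprotein, was the gene called higher (2300 on the control array and 3572 on the mutant array, 0.63). With the median over each gene's probe sets, 2 of 12 were called higher. Calb2, a mesothelial marker, was under the signal minimum in both pools, at 6.3 and 4.7. Slpi, an epithelial protease inhibitor, was also under it, at 74.0 and 68.3. The label of surface epithelium and mesothelium therefore has measured markers on both arrays, without Calb2 and Slpi.

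The junction genes that work with E-cadherin and the keratins were counted as lists. By the shares over all measured genes, 7.90% called lower and 9.32% higher, few calls are due in lists of this size. Of 11 measured adherens junction genes, 0 were called in either direction, with a median log2 ratio of 0.03 and ratios from -0.50 for Afdn, a nectin-binding scaffold, and -0.40 for Cdh2, which encodes N-cadherin, to 0.30 for Cdh11 and 0.31 for Ctnna1, which encodes alpha-catenin and whose other probe sets reach down to -0.45. Of 10 measured desmosome and keratin-linker genes, 0 were called either way (median 0.08). Among them Pkp2, a desmosomal plaque protein, had -0.44 and Eppk1, a keratin-binding linker, -0.47, while Dsc2 had 0.40 and Plec, the cytolinker plectin, 0.31.

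Tight junction genes went both ways, with 6 of 15 measured called lower, 2 called higher and a median of -0.52, or 4 lower and 1 higher of the 12 that reached the signal minimum on both arrays. Cldn11 was 396 in the mutant against 36.4 in the control pool (at least 4.90-fold higher) and Cldn1 1368 against 399 (3.43-fold). Cldn6 and Cldn8 had log2 ratios of -1.10 and -0.82 but lay under the signal minimum in the mutant pool, so that the measured bounds are at least 1.41-fold and 1.28-fold lower. The other genes called lower, named after their values were seen, were Cgn (-0.81), Marveld2 (-0.77), Pard3 (-0.68) and Ocln (-0.64).

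Among epithelial regulators and surface proteins, 15 of 20 were measured, 2 were called lower and 2 higher, with a median of -0.04, or 1 and 1 of the 13 that reached the signal minimum on both arrays. Esrp1, an epithelial splicing regulator, was 6669 on the control array and 3662 on the mutant array (log2 ratio -0.86), whereas its relative Esrp2 had 0.72 on its brighter probe set and -1.26 on the other. Ehf and Klf5 each lay under the signal minimum in 1 pool, with bounds of at least 1.29-fold higher for Ehf and 1.07-fold lower for Klf5.

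Genes of epithelial-to-mesenchymal transition were counted for comparison, with 4 of 11 measured called higher, 0 called lower and a median of 0.30, and with the median over each gene's probe sets 2 of 11 were called higher. Vim, the mesenchymal intermediate filament, was 6215 on the control array and 10912 on the mutant array (log2 ratio 0.81), opposite in sign to Krt8 and Krt18, although its 3 probe sets ranged down to 0.17. Twist2 had a ratio of 1.45 and Fn1, the fibronectin gene, 0.59 on its brightest probe set but -0.18 on the other. Zeb2, a transcriptional repressor, had 0.97 with 4 probe sets from -0.56 to 1.33. Zeb1, Snai2 and Snai1, named after their values were seen, were not called. Zeb1 had 0.25 with probe sets down to -1.10, Snai2 had 0.26, and Snai1 was at least 1.09-fold higher. Cdh2, also in this list, had -0.40 and was the only 1 of the 11 below 0. A link between these genes and the E-box letters shown above was not tested. The same pools differed in stromal markers, of which 8 of 11 measured were called higher and 0 lower (median 0.76, summed signal 87169 on the control array and 125375 on the mutant array). Pdgfra and Col1a1, markers of stromal cells, had 1.13 and 1.04. The part of stromal RNA in these ratios was not tested.

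**Figure D3:**
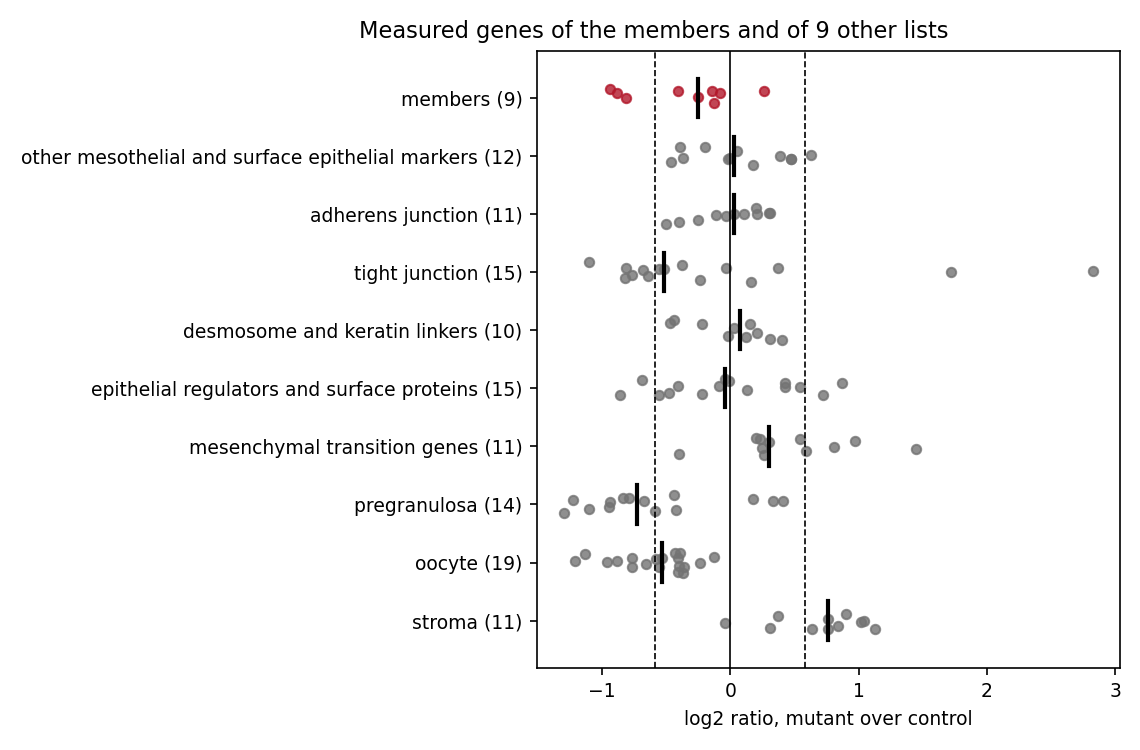
Log2 ratio of mutant to control for each measured gene (points) of the 9 members (red) and of 9 other lists (grey), with the number of measured genes in parentheses, the list median as a black bar and 1.5-fold as dashed lines. The members have a median of -0.25, between the pregranulosa (-0.73) and oocyte (-0.53) lists and the other mesothelial markers (0.02), and the stromal list lies highest (0.76).

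Epithelia that could lie beside the ovary left few measured markers. Of 10 Mullerian duct and mesonephric genes, 5 were measured and 1 was called lower (median 0.03), against 0 of the 3 that reached the signal minimum on both arrays. The gene called was Ovgp1, the oviduct glycoprotein, which read 83.7 on the control array and 33.3 on the mutant array, a bound of at least 1.04-fold lower. Emx2 had a ratio of -0.45 and Sox17 of 0.49, and Wnt7a, at 63.3 and 88.8, was at least 1.10-fold higher. Of the stratified epithelial list 5 of 15 were measured, and Krt14 and Krt1 were under the signal minimum in both pools. Dividing the 3′ by the 5′ control probe set, a measure of RNA integrity, gave 8.48 on the control array and 10.5 on the mutant array for Actb and 3.28 and 4.98 for Gapdh. Its part in the lower keratin signals was not tested.

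Most of the ratios moved little under other ways of computing them. Krt18 stayed between -0.95 and -0.89 under 10 alternative settings, and Cdh1 between -0.13 and -0.08. Each of these genes has 1 probe set, so settings that filter or pick among probe sets could not alter its ratio. With the median over a gene's probe sets in place of the brightest, Krt8 had a ratio of -0.51 and Epcam 0.05, so that neither was called and Krt18 was the only gene called lower.

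**Figure D4:**
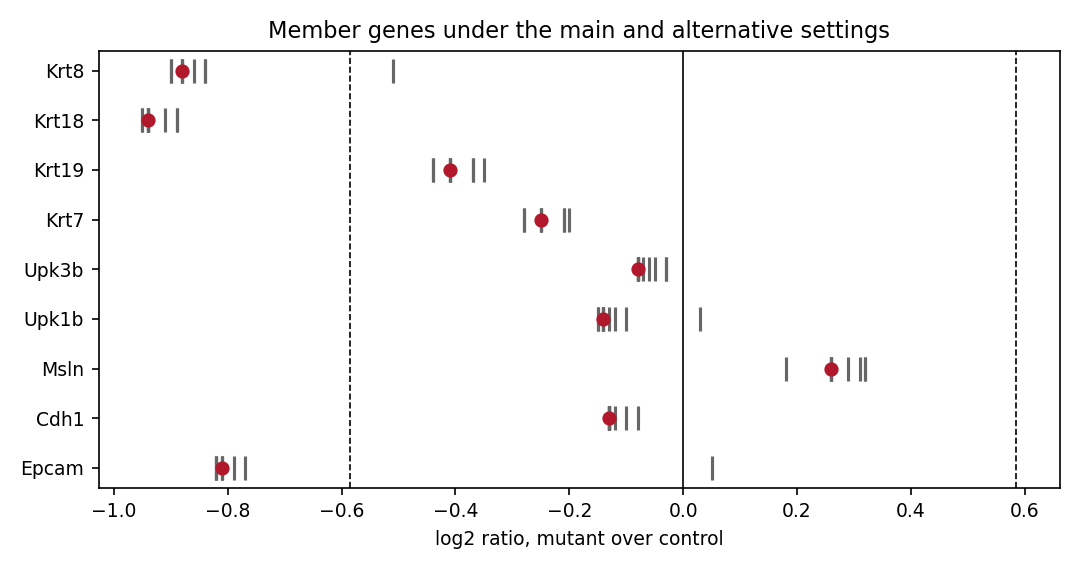
Log2 ratio of mutant to control of each of the 9 genes in the main setting (red points) and under the alternative settings that gave a value (grey ticks), with 1.5-fold as dashed lines. Krt18, which has 1 probe set, stays below the lower dashed line at every tick. Krt8 has 1 tick at -0.51 and Epcam 1 at 0.05, both from the median over probe sets.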

How the data were processed

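RNA from 2 pools, each of the ovaries of 8 mice, was hybridised to 1 Affymetrix expression array per pool. The authors deposited 1 signal intensity per probe set and array, whose linear scale was read from the values, and the submitters' processing notes name GCOS; its algorithm, scaling target and options were not stated there. The trimmed mean (2% removed at each end) was 500.0 for each array, and no further scaling was applied. The signal minimum was reached by 50.3% of control and 49.8% of mutant values. Of 45101 probe sets, 34945 carried a single gene symbol outside the array's 64 control probe sets, 932 had several and went unnamed. Measured probe sets numbered 20576 for 12308 genes. The pseudocount is the 25th percentile of all values and understates the change of dim genes. Where 1 signal lay under the minimum, the fold is a bound, the brighter signal divided by 80.7.

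Named genes are the 9 members, the genotype check genes, and up to 4 measured genes per other list with the largest absolute log2 ratio; Irx5 and Pou5f1 are given as lowest signals, and Krt1, Krt14, Calb2 and Slpi as unmeasured markers. Other genes, including the further keratins, were named after their values were seen. The members and lists were chosen with earlier results of these data known. Ratios were computed in Python 3.11.15 with pandas 2.3.3, and the code was tested on simulated data.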

Additional observations from a re-analysis of the deposited data

How the results depend on the processing

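Of the 9 genes, 3 were called lower in the main setting. That count was 1 with the median over the probe sets of a gene (8.17% of all measured genes), 1 of 6 genes without probe sets shared between transcripts (8.59%; suffixes _a_at, _s_at and _x_at, the only kind that Krt7, Krt8 and Epcam have), and 0 at a 2-fold threshold (1.40%), each near the share over all genes. The log2 ratio of Epcam turned from -0.81 to 0.05 with the median over its 2 probe sets, by the averaging of opposite values. Over all the other lists, 27 of 133 measured genes were called lower and 17 higher, and at 2-fold 7 and 6. Among single lists, 44 of 308 recomputed counts moved by more than 1.5 times or went to or from 0, which in a small list can be a single gene. Other pseudocounts, signal minimums, centring and quantile normalization changed no call among the 9 genes that were measured under them, which were 6 with the minimum at the 75th percentile. The alternatives do not replace replicate arrays, and Msln and the dimmest Upk1b probe set lie close to the signal minimum. No paired analysis was possible because each group has 1 array.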

Other observations

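The remaining keratin genes of the array, picked by symbol after the main values were seen, were mostly dim. Of 44 such genes 14 were measured, and 6 of these reached the signal minimum on both arrays. The direction of the other 8 was set by the array through which they passed, so no count or median is given for the 14. The 6 all had a ratio below 0, as did 6456 of all 12308 measured genes. Krt79 was 997.5 on the control array and 603 on the mutant array (-0.71), Krt33b 235.5 and 81.5 (-1.31), and Krt42 403 and 392 (-0.04). Krt10, a keratin of differentiated epidermis, was 574 and 498 (-0.20), Krt36 152 and 96.8 (-0.55), and Krt81 139 and 116 (-0.22). Krt20, a keratin of gut and bladder epithelium, was 121 and 79.9, with the mutant value just under the signal minimum. The highest signal among the 30 keratin genes not measured was 77.2.

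Trp63, listed here as a marker of stratified epithelium but also expressed by oocytes, was 3605 on the control array and 2213 on the mutant array (log2 ratio -0.70, and -0.83 on its second probe set). In the same list the basal keratins Krt14 and Krt15 read at most 33.9 on either array and Krt5 52.0 and 85.9. Perp, a p63 target in desmosomes, had a ratio of -0.55. Of the other uroplakins, only Upk2 was measured, at 111 on the control array and 141 on the mutant array (0.29). Of 7 intermediate filament genes other than keratins, all measured, 1 was called higher (Vim) and 1 lower, with a median log2 ratio of -0.20. The lower one was Des, the muscle filament gene, at 91.4 and 12.1, which bounds its difference at 1.13-fold or more. Des reached the signal minimum only on the control array. Of the 6 genes that reached it on both arrays, 0 were called lower and 1 higher. Lmnb2 and Synm had ratios of -0.25 and -0.24. The simple-epithelial keratins Krt23 and Krt80 did not reach the signal minimum on either array.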
